A study of Arabidopsis thaliana with 14 samples.

Results

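The genes described here are 10 Arabidopsis thaliana loci that encode root hair extensins and related extensins. They were taken as a list of locus codes: AT3G54580, AT3G54590 (HRGP1), AT2G24980 (EXT6), AT5G06630, AT5G06640 (EXT10), AT3G28550, AT4G08400, AT4G08410, AT4G13390 (EXT12) and AT1G12040 (LRX1). The list was chosen by gene family and with the low signal of AT3G54580 on the slr-1 arrays at 0 h in view. The 0 h arrays therefore took part in the choice, and no difference that uses their means is tested. They enter the other tests only through the estimate of the spread, which was made over all 14 arrays. The ATH1 annotation table pairs 14347 genes with a probe set. Of the 10 loci, 5 have a probe set of their own, AT4G08400 appears only on a probe set shared with AT4G08410, and 4 (EXT6, EXT10, EXT12 and LRX1) are named on no probe set of that table and are not analysed here. The 6 probe sets all passed a filter on low signal (both arrays of at least 1 group above 218.1, the 40th percentile of all signals), as did 14882 of 22746 probe sets.

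Samples were root segments between the root meristem and the hypocotyl, from seedlings grown for 3 days on the auxin transport inhibitor NPA at 10 µM, a treatment that every group shares. The wild type was Col-0, and the mutant was slr-1, which carries a stabilised form of the auxin response repressor IAA14 and is known for lacking lateral roots and forming few root hairs. Col-0 and slr-1 were each taken at 0 h and after 2 h and 6 h on the synthetic auxin NAA at 10 µM, and Col-0 also after 6 h of mock treatment, which was not given to slr-1. Each of the 7 groups has 2 arrays of biologically repeated treatments, each from a pool of about 1500 seedlings per time point. The segment mixes epidermis with the inner root tissues.

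Extensins are hydroxyproline-rich glycoproteins of the plant cell wall. Their repeats are hydroxylated and arabinosylated in the secretory pathway, and in the wall they are cross-linked through tyrosines by class III peroxidases into a network. In Arabidopsis several of them are made mainly in root hair cells, where that network is needed for the tip of the hair to elongate. In RNA from whole segments, fewer hair cells and less extensin RNA per hair cell cannot be told apart.

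Closely related extensins share repeats, which bears on what each probe set reads. AT3G54580 and AT3G28550 have probe sets of the ordinary kind, while those of HRGP1, AT5G06630 and AT4G08410 are of the kind whose probes may also bind other transcripts. AT3G54580 and HRGP1 are direct neighbours on chromosome 3. AT5G06630 and EXT10 lie beside each other on chromosome 5 with 1 listed gene and 0 protein-coding genes between them, and AT4G08400 and AT4G08410 lie on chromosome 4 with 2 listed genes between them. How much of each signal comes from a related extensin was not tested.

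The median signal ranged from 357.2 to 397.2 over the 14 arrays, and the mean after trimming was 1000.1 on each. The ratio of 3' to 5' GAPDH signal, a measure of RNA integrity, lay between 0.546 and 0.742 on 13 arrays and reached 1.16 on slr-1 0 h replicate 2. The maximum signal was 29349.7 on slr-1 6 h NAA replicate 2 and at least 58837.1 elsewhere. The description of both mock samples speaks of a tissue of another organism, but the source name and protocol of each give the root segment. Of the marker lists, those for endodermis, xylem and root tip have 0 genes with a probe set of their own. The 3 named shoot markers of 5 (RCA, PSAN and LHCB4.2, none at 0) summed to 11182 to 11487 in Col-0 0 h, 5808.8 to 6983.1 in Col-0 2 h NAA, 3034.3 to 3985.3 in Col-0 6 h NAA, 8326.3 to 8764.6 in Col-0 mock, 3662.9 to 3752.2 in slr-1 0 h, 2682.1 to 3611.1 in slr-1 2 h NAA and 3013.4 to 3369.6 in slr-1 6 h NAA.

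AT3G54580, an extensin of hair cells, had high signal on every Col-0 array and low signal on every slr-1 array. Its signals in replicates 1 and 2 were 2227.1 and 1802.8 in Col-0 at 0 h, 3905.8 and 1820.4 after 2 h of NAA, 1965.1 and 849.6 after 6 h of NAA, and 1274.8 and 2452 after 6 h of mock treatment. In slr-1 they were 384 and 124.4 at 0 h, 284.6 and 316.7 at 2 h, and 133.4 and 135.2 at 6 h. The lowest of the 8 Col-0 arrays lay above the highest of the 6 slr-1 arrays, and the slr-1 group with the lowest mean was 6 h.

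Its neighbour HRGP1, a hydroxyproline-rich extensin, showed the same separation. HRGP1 read 5700.6 and 4997 in Col-0 at 0 h, 9081.6 and 4293.5 at 2 h, 5849.2 and 3285.7 at 6 h, and 5234.4 and 7778.2 in mock. In slr-1 it read 1613.3 and 720.9, 1681.3 and 1034.3, and 1015 and 851.5 at 0 h, 2 h and 6 h. Every slr-1 array lay below every Col-0 array, but slr-1 kept a signal well above the filter level of 218.1 on each.

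AT4G08410, read on its own probe set, was the other gene whose 8 Col-0 arrays all exceeded its 6 slr-1 arrays. Its signals were 1492.2 and 1662.4 in Col-0 at 0 h, 2510.9 and 1050.7 at 2 h, 980.7 and 833.7 at 6 h, and 1770.7 and 2767.2 in mock. The slr-1 arrays gave 641.1 and 268.9 at 0 h, 679.9 and 271.9 at 2 h, and 496.7 and 435.1 at 6 h. Here the gap was narrower: the lowest Col-0 array, at 833.7, lay just above the highest slr-1 array, at 679.9. This arrangement of all 8 above all 6 arrays was held by 0.611% of all tested probe sets. It includes the 0 h arrays used in the choice, so it is a description and that share supports nothing about these genes.

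AT5G06630 had signal in both genotypes, and their arrays overlapped. It read 2499.2 and 2545.7 in Col-0 at 0 h, 5268.2 and 2328.5 at 2 h, 2548.1 and 1409.4 at 6 h, and 3825 and 4579.8 in mock. The slr-1 signals were 1673.1 and 410.1 at 0 h, 2582.5 and 1407.3 at 2 h, and 1327.7 and 1384.5 at 6 h. The mock arrays stood above all slr-1 arrays, whereas both Col-0 0 h arrays, both 6 h NAA arrays and 2 h NAA replicate 2 lay inside the slr-1 range.

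AT3G28550 differed from the others in that slr-1 and Col-0 had like signals at 0 h and slr-1 had very low signals afterwards. Its Col-0 signals were 225.9 and 251.7 at 0 h, 1068.5 and 130.1 at 2 h, 338.7 and 59.4 at 6 h, and 425.9 and 437.1 in mock. In slr-1 it gave 198.8 and 278.9 at 0 h, 19.4 and 11.1 at 2 h, and 55.2 and 40.6 at 6 h. The 0 h arrays of the genotypes overlapped, and the 4 slr-1 NAA arrays lay below all 4 Col-0 NAA arrays.

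The probe set shared by AT4G08400 and AT4G08410 was dim and showed no separation. In Col-0 it gave 209.7 and 216.7 at 0 h, 382.9 and 183 at 2 h, 232.2 and 84.8 at 6 h, and 218.9 and 454.4 in mock. In slr-1 it gave 291.4 and 103.3, 195.5 and 140.7, and 145.3 and 96.6. The ranges of the genotypes overlapped at 0 h, 2 h and 6 h. For AT4G08410 the own and the shared probe set therefore differed. Only the own one, whose probes may also bind other transcripts, separated the genotypes.

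**Figure D1:**
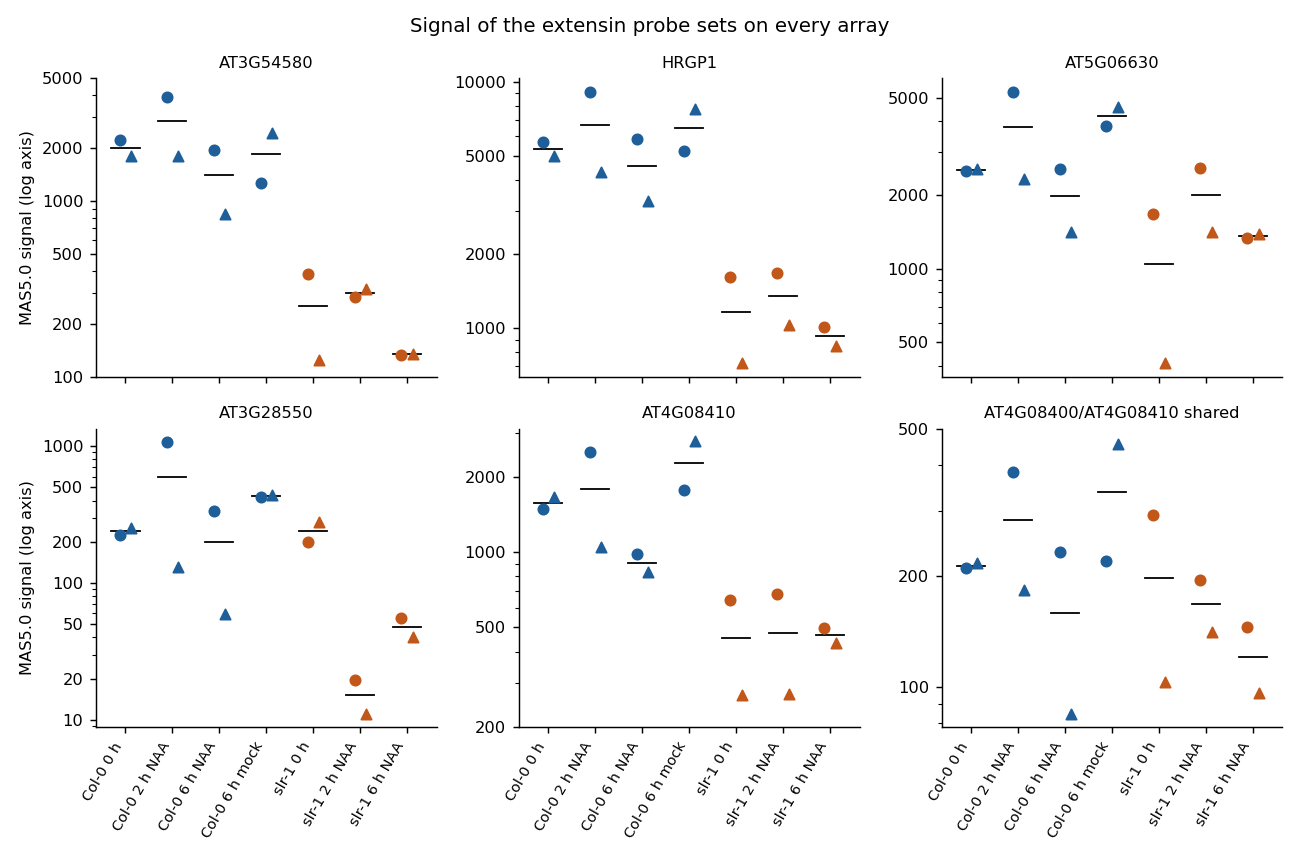
Signal of the 6 extensin probe sets on each of the 14 arrays (log axis, MAS5.0 units), by group, with Col-0 in blue and slr-1 in orange. Circles are replicate 1, triangles replicate 2, and bars the mean of the 2 arrays; AT3G54580 spans 849.6 to 3905.8 on Col-0 arrays and 124.4 to 384 on slr-1 arrays.

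Ranked by mean log2 level, the Col-0 groups held the first 4 places for AT3G54580, HRGP1 and AT4G08410, in different orders. For AT3G54580 the order was Col-0 2 h NAA, Col-0 0 h, mock and Col-0 6 h NAA, then slr-1 2 h, 0 h and 6 h. Neighbours in that order overlapped in range except at the step from Col-0 6 h NAA to slr-1 2 h NAA. HRGP1 began with mock and had its sole gap at the same step. For AT4G08410, mock came first, and there were gaps both above and below Col-0 6 h NAA. AT5G06630 also began with mock, but slr-1 2 h NAA ranked just above Col-0 6 h NAA and overlapped it, and its sole gap lay between Col-0 6 h NAA and slr-1 6 h NAA. AT3G28550 again began with mock, placed slr-1 0 h in the middle among overlapping Col-0 groups, and ended with slr-1 6 h and slr-1 2 h, each apart from its neighbour. The shared probe set began with mock too, and all its neighbours overlapped.

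The differences between genotypes at 0 h are given without a test, because the choice of genes used them. On the log2(signal + 18.9) scale, where 18.9 is the 10th percentile of all signals, slr-1 minus Col-0 was -3.07 for AT3G54580, -2.29 for HRGP1, -1.87 for AT4G08410, -1.58 for AT5G06630, -0.25 for the shared probe set and -0.02 for AT3G28550. Over all tested probe sets 13.4% passed the threshold in this comparison. In 5 of the 6 probe sets the slr-1 array with the higher GAPDH ratio, replicate 2, gave the lower of the pair of signals. The part of RNA integrity in that was not tested.

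After NAA treatment the genotypes were compared on arrays that the rule of choice does not name, although earlier results of these arrays were known too. After 2 h of NAA 4 of 6 probe sets were lower in slr-1 at a Benjamini-Hochberg adjusted p under 0.05 in limma, against 3.7% of all tested probe sets called lower (6.38% called either way). AT3G54580 was 8.42-fold lower (log2 difference -3.07, SE 0.485, 95% interval -4.12 to -2.03, adjusted p = 0.00198), and HRGP1 was 4.68-fold lower (log2 -2.23, SE 0.402, adjusted p = 0.00499). AT3G28550 was 11.9-fold lower (log2 -3.57, SE 0.772, adjusted p = 0.0139), and AT4G08410 was 3.65-fold lower (log2 -1.87, SE 0.454, adjusted p = 0.0249). Neither AT5G06630 (log2 -0.87, adjusted p = 0.406) nor the shared probe set, which also reads AT4G08410 (log2 -0.62, adjusted p = 0.603), passed. The median difference of the 6 probe sets was -2.05, beside 0.00 for all tested probe sets.

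The size given for AT3G28550 depends on the value added before the logarithm, because both slr-1 2 h signals are near it: the log2 difference was -4.57 with 1 added and -2.22 with the 25th percentile of signal, and passed with each. Leaving out Col-0 2 h NAA replicate 1, or slr-1 2 h NAA replicate 2, left AT3G54580 as the sole call of the 4, with adjusted p-values for HRGP1 of 0.0789 and 0.0659, for AT3G28550 of 0.183 and 0.0924, and for AT4G08410 of 0.281 and 0.251. Without slr-1 2 h NAA replicate 1, AT3G28550 had an adjusted p of 0.053. In a fit to these 2 groups alone AT3G28550 (0.0556) and AT4G08410 (0.0672) did not pass. AT3G54580 passed in all 21 alternatives, with log2 differences of -3.62 to -2.53. The shoot marker sums were also lower in slr-1 at 2 h, and their part in these differences was not tested.

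After 6 h of NAA the neighbouring genes on chromosome 3, AT3G54580 and HRGP1, were lower in slr-1 and were the 2 of 6 probe sets that passed. At this time 15.1% of all tested probe sets were called lower and 34.6% either way. AT3G54580 was 8.57-fold lower (log2 -3.10, 95% interval -4.14 to -2.06, adjusted p = 3.00e-04), and HRGP1 was 4.64-fold lower (log2 -2.21, 95% interval -3.08 to -1.35, adjusted p = 9.01e-04). Both passed in 21 of 21 alternatives. AT3G28550 differed by -1.33 (adjusted p = 0.202), AT4G08410 by -0.93 (adjusted p = 0.13), AT5G06630 by -0.48 (adjusted p = 0.508) and the shared probe set by -0.23 (adjusted p = 0.776). All 6 estimates were below 0, with a median of -1.13 beside 0.10 for all tested probe sets. The 6 varied together on the Col-0 arrays and 2 of them read AT4G08410, so the sign count is a description. The share of all tested probe sets below 0 was not counted. The shoot marker sums of the genotypes overlapped at 6 h, but 2 of the 3 markers were called higher in slr-1, PSAN by 1.43 (adjusted p = 1.28e-04) and LHCB4.2 by 1.12 (adjusted p = 0.0214). Their part in the extensin differences was not tested.

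In the fit to these 2 groups alone AT4G08410 also passed (adjusted p = 0.00336), and AT3G28550 passed without Col-0 6 h NAA replicate 2 (log2 -2.43, adjusted p = 0.0446). Over both NAA times, the 4 Col-0 arrays all exceeded the 4 slr-1 arrays for AT3G54580, HRGP1, AT3G28550 and AT4G08410, which is 4 of 6 probe sets, against 7.34% of all tested probe sets with that arrangement.

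**Figure D2:**
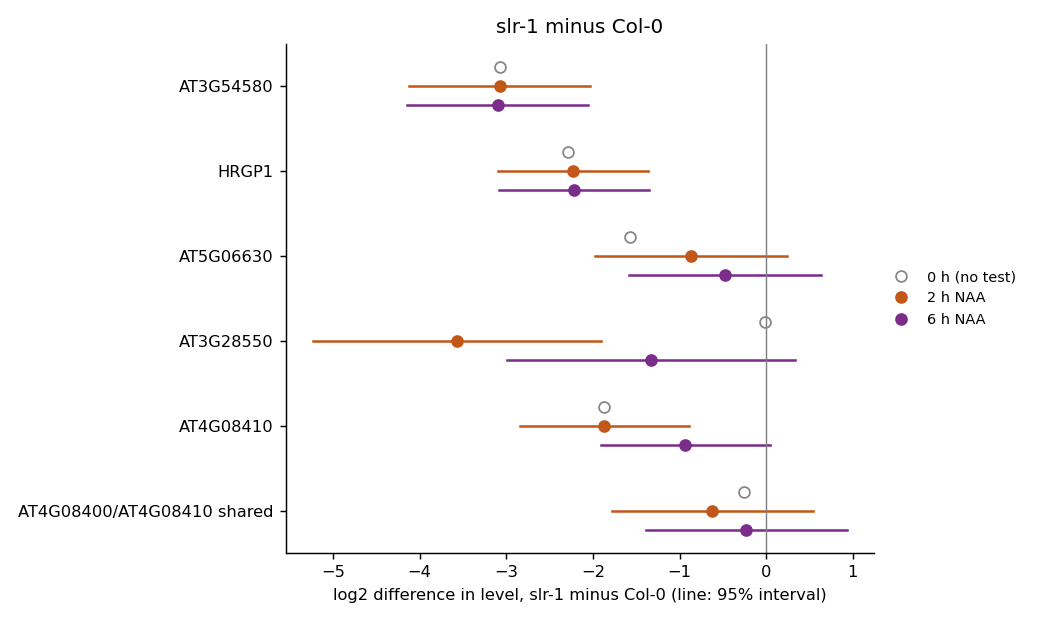
Difference in log2 level, slr-1 minus Col-0, for each extensin probe set after NAA for 2 h or 6 h (filled points, lines show the 95% interval) and at 0 h (open points, no test). The intervals of AT3G54580 run from -4.12 to -2.03 at 2 h and from -4.14 to -2.06 at 6 h. Those of AT5G06630 and the shared probe set include 0 at both times, and those of AT3G28550 (-2.99 to 0.33) and AT4G08410 (-1.91 to 0.04) include it at 6 h.

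The effect of NAA itself was read against mock treatment of the same length in Col-0. AT4G08410 was 2.42-fold lower with NAA (log2 -1.27, SE 0.454, adjusted p = 0.0341) and was the 1 of 6 probe sets that passed, where 24.8% of all tested probe sets were called lower and 45.4% either way. AT5G06630 differed by -1.13 (adjusted p = 0.0875), AT3G28550 by -1.43 (adjusted p = 0.148), the shared probe set by -1.06 (adjusted p = 0.128), HRGP1 by -0.54 (adjusted p = 0.294) and AT3G54580 by -0.45 (adjusted p = 0.482). All 6 were below 0, with a median of -1.10 beside -0.09 for all tested probe sets. The shared probe set passed the filter on low signal only through the mock arrays. The sign count and the median include it and are therefore a description. A call for 1 of the 5 own probe sets is near that background.

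The call of AT4G08410 against mock was lost on leaving out replicate 1 of Col-0 6 h NAA (adjusted p = 0.0824), its replicate 2 (0.135) or mock replicate 2 (0.203), and with no filter on low signal (0.0527). AT5G06630 passed in the fit to NAA and mock alone (0.0101), with the replicate number as a block (0.0389), and without either slr-1 0 h array (0.0198 and 0.0196). Without Col-0 6 h NAA replicate 1, AT3G28550 (log2 -2.52, adjusted p = 0.0326) and the shared probe set (log2 -1.69, adjusted p = 0.0497) passed. The shared probe set passed the filter on low signal only through the mock arrays, where it is highest, so its difference from mock is a description. For AT3G54580 the estimate turned to 0.15 without Col-0 6 h NAA replicate 2. Shoot markers moved in the same direction, with 3 of 3 lower with NAA than with mock, and their part was not tested.

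From 2 h to 6 h on NAA no extensin probe set passed in either genotype. In Col-0, 0 of 6 passed in limma and 0 had an unadjusted p under 0.05, where 33.1% of all tested probe sets passed. The estimates were all negative and ran from -1.27 for AT3G28550 to -0.51 for HRGP1, with AT3G54580 at -1.03 (95% interval -2.08 to 0.01, adjusted p = 0.12). Their common sign is a description, since the probe sets varied together on the Col-0 arrays. In slr-1, 0 of 6 passed and 1 had an unadjusted p under 0.05, where 1.22% of all tested probe sets passed. AT3G54580 in slr-1 moved by -1.06 (95% interval -2.10 to -0.02, adjusted p = 0.319) and AT3G28550 by 0.97 (adjusted p = 0.591). Without Col-0 2 h NAA replicate 2, the Col-0 difference of AT3G28550 passed at -2.70 (adjusted p = 0.014).

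The change from 2 h to 6 h was compared between genotypes as an interaction, which 0 of 6 probe sets passed (0 at an unadjusted p under 0.05), beside 9.84% of all tested probe sets. For AT3G54580 the difference of the changes was -0.03 (95% interval -1.5 to 1.45), and for HRGP1 it was 0.01 (95% interval -1.21 to 1.24), so a difference of more than 2-fold either way lies inside both intervals. For AT3G28550 the estimate was 2.24 (95% interval -0.11 to 4.58, adjusted p = 0.223), a size set by the value added, since both slr-1 2 h signals are near or below 18.9: it was 3.01 with 1 added (adjusted p = 0.152) and 1.36 with the 25th percentile (adjusted p = 0.316). It passed when Col-0 2 h NAA replicate 2 was left out (3.67, adjusted p = 0.0369).

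**Figure D3:**
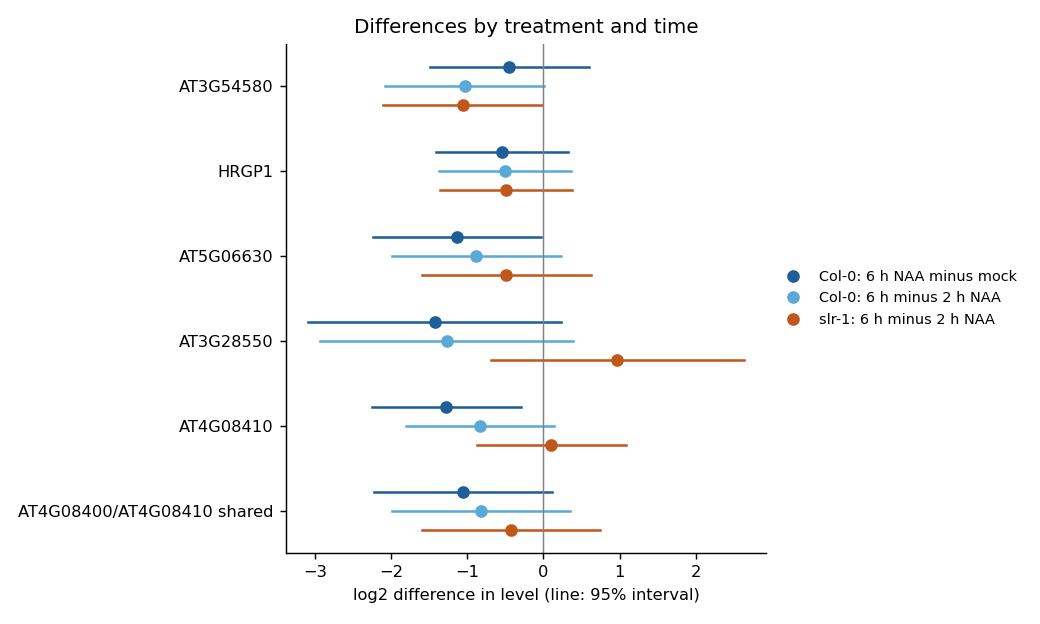
Difference in log2 level for each extensin probe set between Col-0 6 h NAA and mock, and between the later and the earlier NAA time in each genotype, with lines for the 95% interval. AT4G08410 against mock, at -1.27, is the sole difference past the threshold.

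Comparisons with the 0 h arrays are described without a test. AT3G54580 stood 0.41 above 0 h after 2 h of NAA in Col-0 and 0.41 above it in slr-1, and after 6 h it was at -0.62 in Col-0 and -0.65 in slr-1. AT3G28550 went from 0 h to 2 h by 0.65 in Col-0 and by -2.91 in slr-1. AT5G06630 was at 1.18 in slr-1 at 2 h, a value that rests on the low signal of slr-1 0 h replicate 2. In Col-0 mock arrays against 0 h, the 6 estimates ran from -0.18 for AT3G54580 to 0.81 for AT3G28550.

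The extensins varied more between replicates than most of the array. The standard error of a difference between groups was 0.402 to 0.772 for the 6 probe sets, and the median over all tested probe sets was 0.214. Between 90.6% (HRGP1) and 99.4% (AT3G28550) of tested probe sets had a smaller one. The variation was shared: in Col-0 2 h NAA all 6 were higher in replicate 1, by a median of 2.19-fold, and in Col-0 6 h NAA all 6 again, by 2.03-fold. In mock all 6 were higher in replicate 2, by a median of 1.52-fold, and in slr-1 0 h 5 of 6 were higher in replicate 1, with a median of 2.41-fold. In slr-1 2 h NAA 5 of 6 and in slr-1 6 h NAA 4 of 6 were higher in replicate 1, with medians of 1.47-fold and 1.16-fold. Over all tested probe sets 45.4% to 50.6% were higher in replicate 1 across the 7 groups, with 47.1% in Col-0 2 h NAA and 48.6% in Col-0 6 h NAA. In Col-0 0 h the median difference was -0.04 on the log2 scale, and 4 of 6 were higher in replicate 2.

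**Figure D4:**
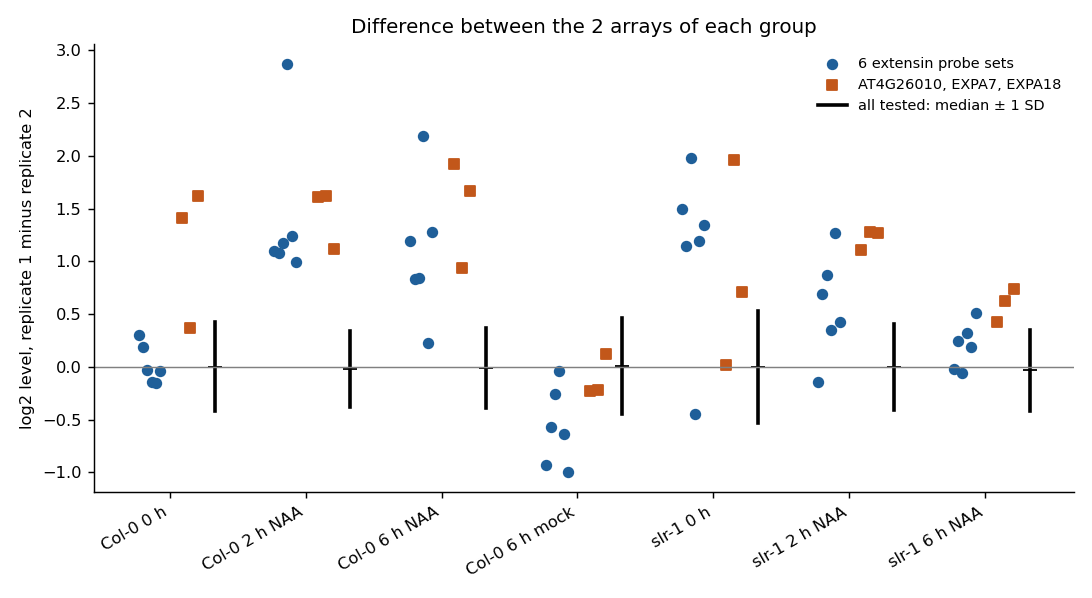
Replicate 1 minus replicate 2 in log2 level within each group, for the 6 extensin probe sets (blue circles), for AT4G26010, EXPA7 and EXPA18 (orange squares) and for all tested probe sets (black bars, median ± 1 SD). The orange squares were picked from the lists by no rule and do not stand for them. SCN1, a hair gene not drawn, differed by 0.06 in Col-0 2 h NAA and 0.11 in Col-0 6 h NAA. Of the extensin-modifying genes not drawn, AT3G57630 (-0.32), XEG113 (-0.27), AT5G13500 (-0.56) and AT3G01720 (-0.16) lay below 0 in Col-0 6 h NAA. In Col-0 2 h NAA only XEG113 did (-0.29). In Col-0 2 h and 6 h NAA every extensin is above 0 and the median of all probe sets is at -0.02 and -0.01, whereas in mock every extensin is below 0.

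Within Col-0 the genes varied together across arrays, and within slr-1 less evenly, given here as a description with no test. These arrays share treatment groups and the differences between replicates just given. Over the 8 Col-0 arrays, Pearson's r between pairs of probe sets ran from 0.676 (AT3G54580 with AT4G08410) to 0.95 (HRGP1 with the shared probe set), and that of the neighbours AT3G54580 and HRGP1 was 0.901. Over the 6 slr-1 arrays AT3G54580 and HRGP1 had r = 0.811. Pairs without AT3G28550 ran there from 0.36 (AT3G54580 with AT4G08410) to 0.914 (HRGP1 with the shared probe set). AT3G28550 did not follow the others in slr-1, with r from -0.655 with AT5G06630 to 0.103 with the shared probe set.

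The genes whose pattern was most like the extensins were ranked by Pearson's r, over the 14 arrays, with the mean of the 5 own probe sets. Since the genotypes form separate clusters, r within each is given too. The first was AT4G26010, the class III peroxidase PRX44 (r = 0.955, with 0.863 in Col-0 and 0.565 in slr-1). The next were AT3G22570, a lipid-transfer-like protein gene (0.919, with 0.906 and -0.27), AT1G30870, another class III peroxidase (0.909, with 0.48 and 0.639), and EXPA18, an expansin of root hairs (0.9, with 0.627 and 0.69). After these came AT4G16000 (0.9, with 0.736 and 0.836) and AT4G11175 (0.892, with 0.602 and 0.919). The pectin methylesterase gene AT5G04960 (0.886, with 0.593 and 0.494) and AT1G01320 (0.876, with 0.444 and 0.616) completed the 8. AT1G30870 spanned 432.7 to 2161.4 on Col-0 arrays and 32.6 to 162.8 on slr-1 arrays. AT3G22570 was steadier between replicates, with 986.9 to 1984.5 in Col-0 and 426.1 to 703.3 in slr-1.

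Of a list of 40 root hair genes, 4 have a probe set of their own and 3 were tested. The tested genes are the expansins EXPA7 and EXPA18, which loosen the wall as hairs emerge, and SCN1. SCN1 keeps hair initiation to a single site per cell. AT2G14760 (RSL3) did not pass the filter on low signal and is in the sums only. The 4 markers summed to 2541.9 to 3173.5 in Col-0 0 h, 2551.9 to 3061.2 in Col-0 2 h NAA, 1560 to 2165.6 in Col-0 6 h NAA and 3086.6 to 3203.6 in mock. In slr-1 the sums were 1992.7 to 2022.8 at 0 h, 1771.2 to 2036.2 at 2 h and 1485.9 to 1809.3 at 6 h, with none of the 4 at 0. At 2 h the genotypes' sums did not overlap, and at 6 h they did. SCN1 makes up most of each sum, with 2133.2 and 2045.2 in Col-0 2 h NAA and 1816.9 and 1710.4 in slr-1 2 h NAA. Its own difference at 2 h was -0.24 (adjusted p = 0.445 in limma). The sums therefore do not show that all 4 markers were lower. How often sums of other probe sets separate in this way was not tested.

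EXPA18 gave 432.9 and 331.1, 460.3 and 136.7, 509.9 and 256.6, and 660.3 and 772 in Col-0 0 h, 2 h NAA, 6 h NAA and mock, and 141.8 and 22.4, 83.7 and 23.4, and 128.4 and 76.7 in slr-1 at 0 h, 2 h and 6 h. Apart from slr-1 0 h replicate 1, its slr-1 arrays lay below every Col-0 array. In slr-1 against Col-0, 0 of the 3 tested hair genes passed in limma at 2 h, when 6.38% of all tested probe sets passed. EXPA18 differed by -2.05 (adjusted p = 0.0862; unadjusted 0.00753) and EXPA7 by -2.15 (adjusted p = 0.0833; unadjusted 0.00718), while SCN1 differed by -0.24. With the replicate number as a block, EXPA7 (adjusted p = 0.0132) and EXPA18 (adjusted p = 0.02) passed at 2 h. At 6 h 0 of 3 passed, when 34.6% of all tested probe sets did, with EXPA18 at -1.69 (adjusted p = 0.0609; unadjusted 0.0224) and EXPA7 at -0.55 (adjusted p = 0.569). EXPA18 passed at 6 h in 7 of 21 alternatives and at 2 h in 4. Against mock, 2 of 3 were lower with NAA in Col-0: EXPA7 by a log2 difference of -2.05 (adjusted p = 0.0242) and SCN1 by -0.46 (adjusted p = 0.0244), where 24.8% of all tested probe sets were called lower. EXPA7 passed the filter on low signal only through the mock arrays, the group where it is highest, so its difference from mock is a description and supports no count. From 2 h to 6 h in Col-0, 1 of 3, SCN1, fell (log2 -0.71, adjusted p = 0.0029), where 33.1% of all tested probe sets passed. The call of EXPA7 was lost without replicate 2 of Col-0 6 h NAA (adjusted p = 0.23) or without either mock array (0.0893 and 0.0781), and that of SCN1 without Col-0 6 h NAA replicate 1 (0.0583) or 2 (0.124) or mock replicate 1 (0.119). Of 11 genes that pattern hair and non-hair cells, 1 has a probe set of its own and 0 were tested.

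The enzymes that modify extensins were represented by 5 tested genes of 15 listed. In slr-1 against Col-0, 1 of 5 was lower and 0 higher at 2 h, and likewise at 6 h. Over all tested probe sets 3.7% and 15.1% were called lower at these times. With NAA against mock in Col-0, 1 of 5 was lower and 1 higher, where 45.4% of all tested probe sets were called either way. The counts at 6 h and against mock are near those shares. AT4G26010 (PRX44), a peroxidase that takes part in extensin cross-linking in Arabidopsis root hairs, was low on the same arrays as AT3G54580. It read 2127.8 and 787.9 in Col-0 0 h, 2360.1 and 759.7 in 2 h NAA, 1221.1 and 308.5 in 6 h NAA, and 2482.6 and 2905.4 in mock. The slr-1 arrays gave 176.5 and 174.5 at 0 h, 205.1 and 84.9 at 2 h, and 160.1 and 114.5 at 6 h, all below every Col-0 array. It was 8.93-fold lower in slr-1 at 2 h (log2 -3.16, adjusted p = 0.00858), 4.12-fold lower at 6 h (log2 -2.04, adjusted p = 0.0212) and 4.25-fold lower with NAA than with mock in Col-0 (log2 -2.09, adjusted p = 0.0139).

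For AT4G26010 the call at 2 h was lost without replicate 1 of Col-0 2 h NAA (adjusted p = 0.121) or slr-1 2 h NAA replicate 2 (0.0924). The call at 6 h was lost without Col-0 6 h NAA replicate 1 (0.264) or without slr-1 6 h NAA replicate 1 (0.0546) or 2 (0.121), and the call against mock without Col-0 6 h NAA replicate 2 (0.188) or mock replicate 2 (0.069). The other 4 genes act earlier, on the protein in the secretory pathway: AT5G13500 (HPAT3) starts arabinose chains on hydroxyproline, XEG113 and AT3G57630 (ExAD) extend them, and AT3G01720 (SERGT1) adds galactose to serine. None of these 4 passed between genotypes at 2 h or 6 h. AT3G57630 rose with NAA against mock by 0.79 (adjusted p = 0.046), a call kept in 12 of 21 alternatives and lost on leaving out either array of Col-0 2 h NAA, 6 h NAA or mock, with the replicate block (0.0554), with no filter (0.0694) and with 1 added (0.0507).

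Of 16 other extensin or extensin-like genes, 10 have a probe set of their own and 7 were tested. In slr-1 against Col-0, 1 of 7 was higher and 0 lower at 2 h. At 6 h 2 of 7 were higher and 0 lower. Over all tested probe sets 2.68% and 19.4% were called higher at these times. With NAA against mock in Col-0, 2 of 7 were lower and 0 higher, near the 24.8% of all tested probe sets called lower. Between 2 h and 6 h in Col-0, 1 of 7 fell and 0 rose, where 33.1% of all tested probe sets passed. AT1G26250, an extensin-like gene next to AT1G26240 on chromosome 1, had signals of 596.4 and 781 in Col-0 0 h, 686.8 and 567.5 in 2 h NAA, 741.8 and 642.3 in 6 h NAA and 1830.4 and 887.8 in mock. In slr-1 it had 4104 and 2963.4 at 0 h, 1987.3 and 2247 at 2 h, and 1158.9 and 1508 at 6 h. At each matched time both slr-1 arrays exceeded both Col-0 arrays.

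AT1G26250 was 3.31-fold higher in slr-1 at 2 h (log2 1.73, SE 0.280, adjusted p = 0.00236, passed in 21 of 21 alternatives) and 1.89-fold higher at 6 h (log2 0.92, adjusted p = 0.0214), the latter lost without Col-0 6 h NAA replicate 1 (0.0609) or 2 (0.108) or slr-1 6 h NAA replicate 2 (0.157). Against mock it was lower with NAA by -0.87 (adjusted p = 0.0211), a call lost without either Col-0 6 h NAA array (0.0509 and 0.109), without mock replicate 1 (0.291) and in the fit to NAA and mock alone (0.0548). Its neighbour AT1G26240 did not pass between genotypes at either time.

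AT1G70990, a proline-rich extensin-like gene, had 407.4 and 365.1 in Col-0 2 h NAA, 210.2 and 235.2 in 6 h NAA, and 479 and 463.3 in mock, against 362.7 and 378 in slr-1 2 h NAA and 520.7 and 545.1 in slr-1 6 h NAA. The genotypes overlapped at 2 h and lay far apart at 6 h. It was 2.29-fold higher in slr-1 at 6 h (log2 1.19, adjusted p = 3.13e-04), 2.03-fold lower with NAA than with mock in Col-0 (log2 -1.02, adjusted p = 5.44e-04), and fell in Col-0 from 2 h to 6 h (log2 -0.75, adjusted p = 0.00776). The fall was lost without Col-0 2 h NAA replicate 1 (0.0667) or 6 h NAA replicate 1 (0.0615). The remaining 5 tested genes of this list, among them AT1G23720 (-0.43 at 2 h and -0.20 at 6 h), passed in none of these comparisons.

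**Figure D5:**
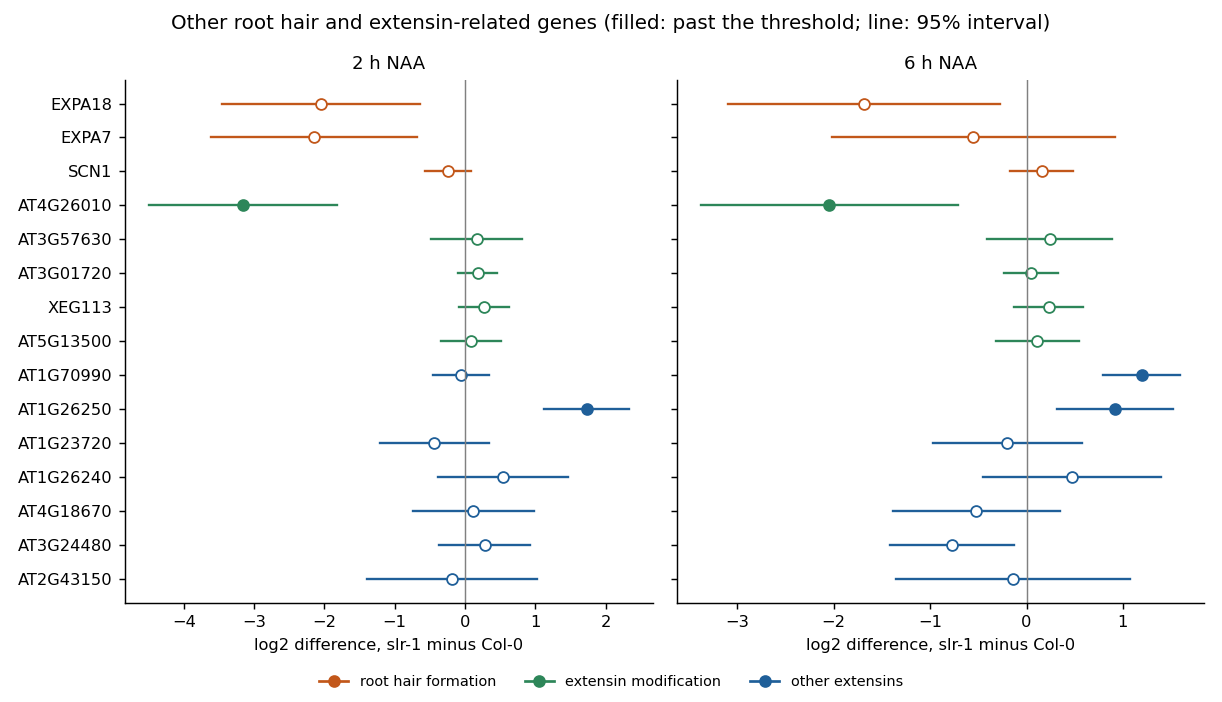
Difference in log2 level, slr-1 minus Col-0, after NAA for 2 h or 6 h in the 15 tested genes of the 3 lists, with lines for the 95% interval and filled points for those past the threshold. AT4G26010 is lower at both times (-3.16 and -2.04), and AT1G26250 is higher at both (1.73 and 0.92).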

How the data were processed

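Per the labels' protocols, 5.8 µg of total RNA per sample was made into biotinylated cRNA and hybridised to ATH1 arrays. The deposited values are unlogged MAS5.0 signal intensities, 1 per probe set and array, made by the authors per the submitters' processing notes; its settings are not given in the sources used here. Detection calls were not analysed. Intensities were taken as log2(signal + 18.9), the pooled 10th percentile, with no further normalization, so differences of dim genes are understated. Of 22810 probe sets 64 controls were left out, and 14882 were tested, those above 218.1 (the 40th percentile of all signals) on both arrays of some group.

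Means of the 7 groups were fitted in R 4.3.3 by limma 3.58.1 (lmFit, and eBayes with a variance trend; residual df 7, prior df 6.57), and p-values were adjusted by Benjamini-Hochberg over all tested probe sets with a threshold of 0.05. The 6 comparisons without 0 h arrays were tested, and 6 with them were described. The spread was estimated over all groups, so the 0 h arrays enter the SE and p-value of each test. Only 2 arrays a group limit the precision. Exact permutation was not used. The script was tested on simulated data.

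Genes were named through the platform annotation table (13513 probe sets with 1 gene, 503 with several and 8730 with none named) and neighbours through the RefSeq table of TAIR10.1. Members and lists were chosen with earlier results of these data known. Named were all members, per list and comparison up to 4 passing genes with the largest change, otherwise up to 2 with the highest signal, and the 8 genes most correlated with the members. Alternatives were another added value, another or no filter, quantile normalization, a fit to the compared groups alone, the replicate number as a block, and leaving out each array.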

Additional observations from a re-analysis of the deposited data

Results flagged for a closer look

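The course of the extensin-like gene AT1G70990 on NAA differed between the genotypes by a test of the difference itself. It was 1 of 7 tested genes of its list to do so, where 9.84% of all tested probe sets passed this test, as did 2 of 3 shoot markers. From 2 h to 6 h its log2 level changed by -0.75 in Col-0 and by 0.50 in slr-1, and the difference of these changes, slr-1 minus Col-0, was 1.25 (SE 0.266, adjusted p = 0.0122 in limma). Both slr-1 6 h arrays lay above both slr-1 2 h arrays, and both Col-0 6 h arrays lay below both Col-0 2 h arrays. The change in slr-1 alone did not pass (adjusted p = 0.222). The interaction was past the threshold in 19 of 21 alternatives, and was lost on leaving out the first replicate of Col-0 2 h NAA (adjusted p = 0.0526) or of Col-0 6 h NAA (adjusted p = 0.0528). Of the 6 probe sets of the root hair extensins, 0 passed this interaction.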

How the results depend on the processing

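With 2 arrays a group, the extensin counts depend on single arrays. Against mock, 1 probe set passed, and 0 did with no filter, 2 in a fit to the compared groups alone and 2 with the replicate block. For slr-1 against Col-0 at 2 h, 4 passed, 2 did in a fit to the compared groups alone, and leaving out 1 array gave 1 to 4. At 6 h, 2 passed, and 2 to 3 did in every alternative. For Col-0 6 h against 2 h and for the difference of the 2 h to 6 h change, 0 passed and leaving out 1 array gave 0 to 1; for slr-1 6 h against 2 h it gave 0 throughout. With the filter at the 60th percentile, AT3G28550 and the shared probe set were not tested.

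No estimate past the threshold reversed its sign. Among those not past it, the difference of change turned to 0.20 for AT3G54580 with the 25th percentile added and to -0.033 for HRGP1 with quantile normalization, which also gave -0.012 for AT4G08410 in slr-1 6 h against 2 h. On leaving out 1 array, AT3G54580 against mock ran from -1.04 to 0.15. The shared probe set at 6 h ran from -0.87 to 0.41, SCN1 from -0.0545 to 0.37 and EXPA7 from -1.39 to 0.28. In Col-0 6 h against 2 h, HRGP1 ran from -1.05 to 0.0302 and AT3G28550 from -2.70 to 0.17, and in slr-1 AT4G08410 ran from -0.53 to 0.73. The difference of change ran from -0.62 to 0.57 for AT3G54580, -0.53 to 0.55 for HRGP1, -0.19 to 0.98 for AT5G06630 and -0.24 to 1.03 for the shared probe set. The cause was not tested.

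Whether the replicate numbers pair the samples was not settled. Over 21 pairs of groups, the correlation of same-numbered arrays' deviations ran from -0.161 to 0.128, and between Col-0 groups from 0.006 to 0.12. A weak correlation over all tested probe sets cannot exclude a pairing that bears on some genes. With the replicate block, the extensin counts were 2 against mock, 4 and 2 between genotypes at 2 h and 6 h, and 0 in the other 3 comparisons. EXPA7 (adjusted p = 0.0132) and EXPA18 (0.02) at 2 h and EXPA18 at 6 h (0.0143) passed with it. Leaving out 1 array lowered the calls over all probe sets from 950 to as few as 298 at 2 h, from 5144 to 2960 at 6 h, from 4928 to 2971 in Col-0 6 h against 2 h, from 181 to 31 in slr-1 and from 1465 to 510 for the difference of change; fewer arrays were in each of these fits. Where an array was left out, the lone array of its group was assumed to vary like the others.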
